A study of Mus musculus with 4 samples.

Results

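A group of 9 imprinted genes from 3 domains of mouse chromosome 6 were followed in lung mesenchymal cells with or without deletion of the DNA methyltransferase gene Dnmt1. They are Peg10, Sgce, Ppp1r9a and Calcr around the Peg10-Sgce promoter, Mest, Copg2 and Klf14 in the Mest domain, and Nap1l5 with its host gene Herc3. They were taken by gene symbol from a table of read counts, and all 9 were among its 31247 genes. Cells carrying a Pdgfrb-GFP reporter were sorted from lungs on postnatal day 7, about 300000 to 350000 per sample, and their total RNA was sequenced. There were 2 wild-type (WT) libraries, with the genotype PDGFRb-GFP, and 2 conditional knockout (CKO) libraries. The CKO animals had Dnmt1-D/D alleles together with Tbx4-rtTA and Tet-O-Cre. The reporter was common to both genotypes, and the labels do not say whether the WT animals carried Tbx4-rtTA or Tet-O-Cre. Tbx4 regulatory sequence drives expression in lung mesenchyme, and rtTA switches on Tet-O-Cre in the presence of doxycycline. The deletion is therefore limited to cells of that lineage, and cells without recombination can remain in the sorted fraction.

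An imprinted gene is transcribed mainly from the copy inherited from 1 parent, and the silent copy is marked by DNA methylation laid down in the germ line at a differentially methylated region. Dnmt1 copies that methylation to the new strand at each cell division. Peg10, Sgce, Mest and Nap1l5 are known to be expressed from the paternal copy, with methylation of their CpG-rich promoters on the maternal copy. Ppp1r9a, Calcr and Copg2 are known for maternal expression that is restricted to some tissues, and Klf14 is known for expression from the maternal copy. Herc3 is included as the host gene of Nap1l5, and no parental copy is stated for it here. Reads were not assigned to parental alleles here, so the values below are the sum of both copies.

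The 4 libraries held between 23071657 and 26420648 counted reads and are named by genotype and a letter that pairs nothing. Where a genotype has a pair of values, A comes before B. WT B had reads on 27643 genes, against 21883 to 22532 in the others. Dnmt1 stood at 144 and 115 CPM (reads scaled to TMM library size) in WT and at 78.1 and 29.5 CPM in CKO. This left 60.3% of the WT mean in CKO A but 22.8% in CKO B. The fall was not called by edgeR's quasi-likelihood test (log2 change -1.27 ± 0.57 SE, n = 2 per genotype, adjusted p = 0.31). With either CKO library left out it was called (adjusted p = 3.82e-05 for CKO B alone, adjusted p = 0.0401 for CKO A alone, edgeR). The authors' deposited table lists Dnmt1 at a log2 value of -1.23 with an adjusted p of 0.029. Y-linked reads were found in CKO A only, with 2494 of Ddx3y and 0 in the other libraries. The 8 mesenchymal markers summed to between 64500 and 87200 CPM, against 70.4 to 131 for 6 endothelial, 38.4 to 112 for 6 epithelial and 43.2 to 339 for 6 cartilage markers. Of those 4 lists edgeR and limma-voom called 0 markers, with 1 higher (Col1a1) and 3 lower (Pdgfra, Pdgfrb and Comp) at an unadjusted p under 0.05 in edgeR. For limma-voom these unadjusted counts were 1 and 3 as well. DESeq2 called 4 mesenchymal markers, the collagen genes Col1a1 and Col1a2 higher and the receptor genes Pdgfra and Pdgfrb lower.

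Of the 9 genes, 7 had enough reads to be tested. Herc3 rose in CKO, Ppp1r9a fell, and Peg10, Sgce, Mest, Copg2 and Nap1l5 did not pass an adjusted p of 0.05 (edgeR, Benjamini-Hochberg over 15210 genes). The 2 called genes stand beside a background of 7.61% of all tested genes called in either direction, 4.85% higher and 2.75% lower. WT and CKO values did not overlap for 4 of the 7, Ppp1r9a, Mest, Copg2 and Herc3, where 57.1% of all tested genes had no overlap. The median log2 change was 0.08 over the 7 genes and -0.01 over all tested genes. In these bulk libraries a change in the share of cells that express a gene and a change in RNA per cell cannot be told apart.

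**Figure D1:**
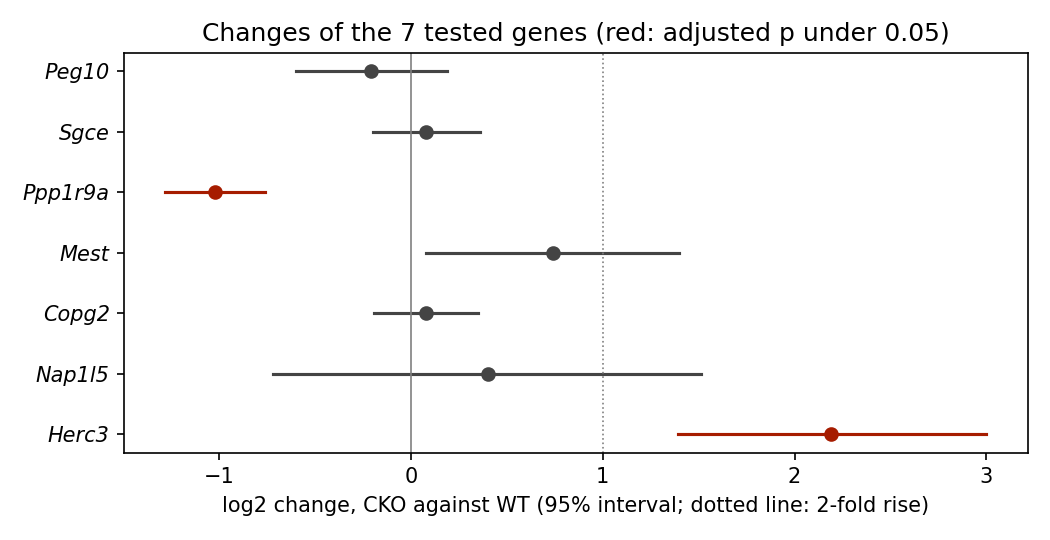
Log2 change of CKO against WT (x axis) for the 7 tested genes, with 95% intervals from edgeR's fit of all 4 libraries; the solid line marks no change and the dotted line a 2-fold rise. Herc3 lies at 2.19 and Ppp1r9a at -1.02, both called, whereas the intervals of Peg10, Sgce, Copg2 and Nap1l5 span 0.

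Peg10 and Sgce, the paternally expressed pair of the first domain, showed no called change. Peg10 (ENSMUSG00000092035, chromosome 6, 4747306 to 4760517, plus strand, GRCm38) derives from a retrotransposon and is needed for placental development. WT libraries had 116 and 85.1 CPM of Peg10 and CKO libraries 79.6 and 94.7, from 2090 to 2648 reads per library. The WT libraries lay farther apart than the genotype means, and CKO B fell between them. The Peg10 difference was -0.21 ± 0.17 on the log2 scale, which was not called (SE, 2 libraries per genotype, edgeR adjusted p = 0.495). Its unadjusted 95% interval ran from -0.60 to 0.19, so a 2-fold rise of the bulk level, a log2 change of 1, lay outside it. A rise in only part of the cells would move that level by less and was not tested. The direction of the Peg10 change rested on WT A, since the change was 0.05 without that library.

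Sgce encodes epsilon-sarcoglycan, a membrane protein of the dystrophin-associated complex (ENSMUSG00000004631, chromosome 6, 4674350 to 4747207, minus strand). Its annotated start lies 99 bases from that of Peg10 and it is read in the opposite direction. Sgce reached 91.5 and 96.6 CPM in the WT pair, 107 and 91.2 CPM in the CKO pair, and the genotypes overlapped. The change was 0.08 ± 0.12 on the log2 scale (edgeR adjusted p = 0.735) and -0.02 without CKO A. Its unadjusted interval from -0.20 to 0.36 also left out a 2-fold rise of the bulk level, with the same limit as for Peg10. Peg10 and Sgce levels were ordered differently over the libraries. WT A had the highest Peg10 level, while CKO A had the lowest Peg10 and the highest Sgce level.

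Ppp1r9a, the next gene downstream of Peg10, fell in CKO. It encodes neurabin, an actin-binding scaffold that holds protein phosphatase 1 (ENSMUSG00000032827, chromosome 6, 4902917 to 5165661, plus strand), and starts 156 kb from Peg10. It was present at 88.1 and 95.2 CPM in WT, and at 45.1 and 45.2 CPM in CKO. Both CKO libraries lay at 49.3% of the WT mean. Their Dnmt1 RNA differed, and a link of Ppp1r9a to Dnmt1 RNA was not tested. The fall was 2.03-fold (95% interval 1.69 to 2.43, log2 change -1.02 ± 0.11 SE, edgeR adjusted p = 0.0038, n = 2 per genotype). By unadjusted p Ppp1r9a stood at place 71 of the 15210 tested genes. Leaving out any 1 library kept the call, with log2 changes from -1.06 to -0.96. In the authors' deposited table Ppp1r9a stands at a log2 value of -0.98 (adjusted p = 1.72e-07). Unclassified genes of the same strand within its introns, Gm26814, Gm26736 and Gm26556, held at most 41 reads in a library.

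The promoter of Ppp1r9a is shown because it is the one in this domain whose gene was called, and because of its CpG content. The window runs from 250 bases before to 50 bases after a RefSeq start (GRCm38.p6, plus strand, chr6:4903061-4903360), with CG dinucleotides in capitals.
Ppp1r9a: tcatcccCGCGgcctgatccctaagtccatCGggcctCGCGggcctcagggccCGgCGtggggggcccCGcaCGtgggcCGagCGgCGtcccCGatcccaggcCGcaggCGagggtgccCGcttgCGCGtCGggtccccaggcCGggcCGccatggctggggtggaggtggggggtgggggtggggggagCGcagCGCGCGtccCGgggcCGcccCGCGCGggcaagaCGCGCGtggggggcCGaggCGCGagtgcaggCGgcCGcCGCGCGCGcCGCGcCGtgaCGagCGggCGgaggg
It holds 48 CG dinucleotides at 82.0% GC, and 1.02% of the 32851 RefSeq promoter windows of this length hold more. A further RefSeq start of Ppp1r9a has 10 CG dinucleotides in its window. The letters TGCCGC, which the imprint-protecting zinc finger protein Zfp57 is known to bind when methylated, occur in neither window on either strand.

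Calcr, the calcitonin receptor gene (ENSMUSG00000023964, chromosome 6, 3685680 to 3764714, minus strand), was barely detected. It had 1 and 2 reads in WT and 0 in both CKO libraries, which allows up to 0.0607 CPM over the CKO group at a floor of 3 reads. The WT total of 3 reads lies at that floor, so no fold is given, and the gene was too low to be tested.

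Mest was 1.67 times as high in CKO but did not pass the test. It encodes a protein of the alpha/beta hydrolase fold family and is among the best known paternally expressed genes of growing mesoderm (ENSMUSG00000051855, chromosome 6, 30723547 to 30748465, plus strand). Mest levels were 29.7 and 19.8 CPM in WT against 33.5 and 49.2 CPM in CKO. Both CKO libraries were above both WT libraries, with a narrow gap between WT A and CKO A. Relative to the WT mean these were 135% in CKO A and 199% in CKO B. CKO B had less Dnmt1 RNA and CKO A alone had Y-linked reads, and a link of either to Mest was not tested. The difference was 0.74 ± 0.26 on the log2 scale (SE, n = 2 per genotype, edgeR unadjusted p = 0.0331, adjusted p = 0.159), a ratio of 1.67 with an unadjusted interval from 1.06 to 2.64. A 2-fold rise lay within that interval. DESeq2 called Mest higher (log2 change 0.76, adjusted p = 0.0289), and so did edgeR with no filter on low counts (adjusted p = 3.7e-06), whereas limma-voom did not (adjusted p = 0.119). Leaving out single libraries gave changes from 0.45 without CKO B to 1.07 without WT A. The authors' deposited table lists Mest at 0.78 with an adjusted p of 0.0613.

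The Mest promoter is shown as that of a gene known to be imprinted at a promoter (GRCm38.p6, plus strand, chr6:30737800-30738099, CG in capitals).
Mest: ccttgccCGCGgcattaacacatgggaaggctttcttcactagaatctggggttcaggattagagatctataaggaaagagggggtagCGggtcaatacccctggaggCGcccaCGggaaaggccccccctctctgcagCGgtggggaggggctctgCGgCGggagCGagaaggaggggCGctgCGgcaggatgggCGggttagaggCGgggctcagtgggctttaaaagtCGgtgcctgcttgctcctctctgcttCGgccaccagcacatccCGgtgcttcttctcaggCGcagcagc
The window has 17 CG dinucleotides at 62.7% GC, and the letters TGCCGC occur 2 times, both read on the opposite strand as GCGGCA. At least 1 match was found in 11.6% and at least 2 matches in 1.53% of the RefSeq promoter windows. A RefSeq start farther upstream has 8 CG dinucleotides and 0 matches in its window.

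Copg2, on the minus strand, encodes a gamma subunit of the COPI coat that brings vesicles back from the Golgi (ENSMUSG00000025607, chromosome 6, 30747554 to 30896794). It varied less than Mest, with 27.6 and 29.5 CPM in WT and 30.3 and 30.1 CPM in CKO, the latter both higher by a small gap. The change was 0.08 ± 0.12 on the log2 scale (edgeR adjusted p = 0.717), with an interval from -0.19 to 0.35. The 3′ ends of Mest and Copg2 share 912 bases on opposite strands, which make up 23.1% of the Mest and 17.8% of the Copg2 exon length. Whether reads were counted by strand is not stated, so reads in that stretch cannot be assigned to either gene with certainty. Klf14, an intronless gene for a Krüppel-like transcription factor (ENSMUSG00000073209, chromosome 6, 30956023 to 30959078), had 4 and 6 reads in WT and 2 and 6 in CKO. The ratio of CKO to WT was 0.797 with a 95% counting interval from 0.273 to 2.24, so that no difference was detectable at this depth.

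The clearest rise was that of Herc3, a HECT-type ubiquitin ligase gene that carries Nap1l5 in an intron (ENSMUSG00000029804, chromosome 6, 58831465 to 58920398, plus strand). Herc3 had 21 and 32 reads in WT (0.922 and 1.21 CPM) and 102 and 138 reads in CKO (3.88 and 5.95 CPM). The lowest CKO level was above the highest WT level by more than the whole range of the WT pair. The rise was 4.58-fold (95% interval 2.62 to 8.0, log2 change 2.19 ± 0.35 SE, edgeR adjusted p = 0.0121, n = 2 per genotype). Against the WT mean, the CKO levels were 365% and 559%. The call held without each library in turn, with log2 changes between 1.87 and 2.5, and in DESeq2 (adjusted p = 0.000352) and limma-voom (adjusted p = 0.0311). The authors' deposited table gives 2.24 and an adjusted p of 3.44e-05. Only 25.5% of tested genes had a lower mean level, so the rise rests on few reads.

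Markers of some other cells were also called by edgeR, in either direction. Of 6 immune markers edgeR called 4 higher (Cd74, Fcer1g, Laptm5 and Csf1r) and 0 lower, and their summed level was 11.1 and 15.7 CPM in WT against 39.4 and 33.2 in CKO, with none at 0. Of 6 neural crest and Schwann cell markers, 4 of them tested, Ngfr and S100b were called higher, and the sum went from 26.9 and 33.6 to 85.9 and 92.0 CPM. Sox10, a defining marker of those cells, had 0 reads in WT and 5 and 3 in CKO. Of 6 erythroid markers Hba-a1 and Hba-a2, near-identical globin genes, were called lower, with sums of 22.8 and 30.2 against 14.0 and 7.42 CPM. The part of these cells in the change of Herc3 or Ppp1r9a was not tested.

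Nap1l5, the paternally expressed gene inside Herc3, belongs to the nucleosome assembly protein family (ENSMUSG00000055430, chromosome 6, 58905233 to 58907076, minus strand). It had 13 and 20 reads in WT (0.571 and 0.754 CPM) and 19 and 24 in CKO (0.723 and 1.04 CPM), and CKO A lay between the WT libraries. The log2 change was 0.40 ± 0.49 (SE, edgeR adjusted p = 0.66), with an interval from -0.72 to 1.51 that is too wide to separate no change from a 2-fold rise. The exons of Nap1l5 and Herc3 share 0 bases, so mature reads of either gene do not count for the other. Total RNA was sequenced and the strand setting of the counting is not stated. Unspliced Herc3 reads across Nap1l5 could therefore have been counted for Nap1l5, and this was not tested. The 2 genes start 75.6 kb apart.

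The promoters of this nested pair are shown together because they differ in CpG content while lying within the same gene (GRCm38.p6, CG in capitals; Nap1l5 minus strand, chr6:58907077-58907376; Herc3 plus strand, chr6:58833450-58833749).
Nap1l5: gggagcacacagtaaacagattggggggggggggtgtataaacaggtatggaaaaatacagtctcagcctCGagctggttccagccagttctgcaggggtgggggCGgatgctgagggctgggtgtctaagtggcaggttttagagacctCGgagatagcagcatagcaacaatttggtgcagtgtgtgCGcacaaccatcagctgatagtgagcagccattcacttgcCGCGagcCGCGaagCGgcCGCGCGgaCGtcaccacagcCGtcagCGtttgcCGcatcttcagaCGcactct
Herc3: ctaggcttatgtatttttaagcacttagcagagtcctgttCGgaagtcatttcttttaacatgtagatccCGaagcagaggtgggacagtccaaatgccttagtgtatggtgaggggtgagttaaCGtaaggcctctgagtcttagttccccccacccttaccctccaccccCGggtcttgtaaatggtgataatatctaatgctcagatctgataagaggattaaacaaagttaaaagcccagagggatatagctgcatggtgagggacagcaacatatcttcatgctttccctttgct
The Nap1l5 window holds 17 CG dinucleotides and 2 copies of TGCCGC on the printed strand. The Herc3 window holds 4 CG dinucleotides, fewer than 62.0% of RefSeq promoter windows, and 0 copies on either strand. Its RefSeq start lies 2235 bases inside the gene as GENCODE draws it, so it may not be the start used in these cells. Matches were also found at genes known for maternal expression, with 2 in a Calcr window and 1 in the Copg2 window. A further Calcr window held 0. A letter match describes the sequence only.

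The genes covered a wide range of levels once reads were divided by exon length. In WT, CPM per kb of merged exons was 15.1 ± 3.31 for Peg10, 8.86 ± 0.341 for Sgce, 6.31 ± 0.343 for Ppp1r9a, 6.28 ± 1.78 for Mest and 5.57 ± 0.261 for Copg2 (mean ± SD, n = 2). Peg10 and Sgce did not overlap in this order, nor did Sgce and Ppp1r9a, while Ppp1r9a, Mest and Copg2 overlapped their neighbours. Far below came Nap1l5 at 0.359 ± 0.0704, Herc3 at 0.117 ± 0.0221, Klf14 at 0.0658 ± 0.0117 and Calcr at 0.0153 ± 0.0057. In CKO the order per kb was different. Mest (10.5 ± 2.81) overlapped both Peg10 (13.1 ± 1.61) and Sgce (9.36 ± 1.08), which did not overlap each other, and Ppp1r9a (3.11 ± 0.00321) lay below Copg2 (5.89 ± 0.0266). Herc3 (0.539 ± 0.160) reached the level of Nap1l5 (0.477 ± 0.120).

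**Figure D2:**
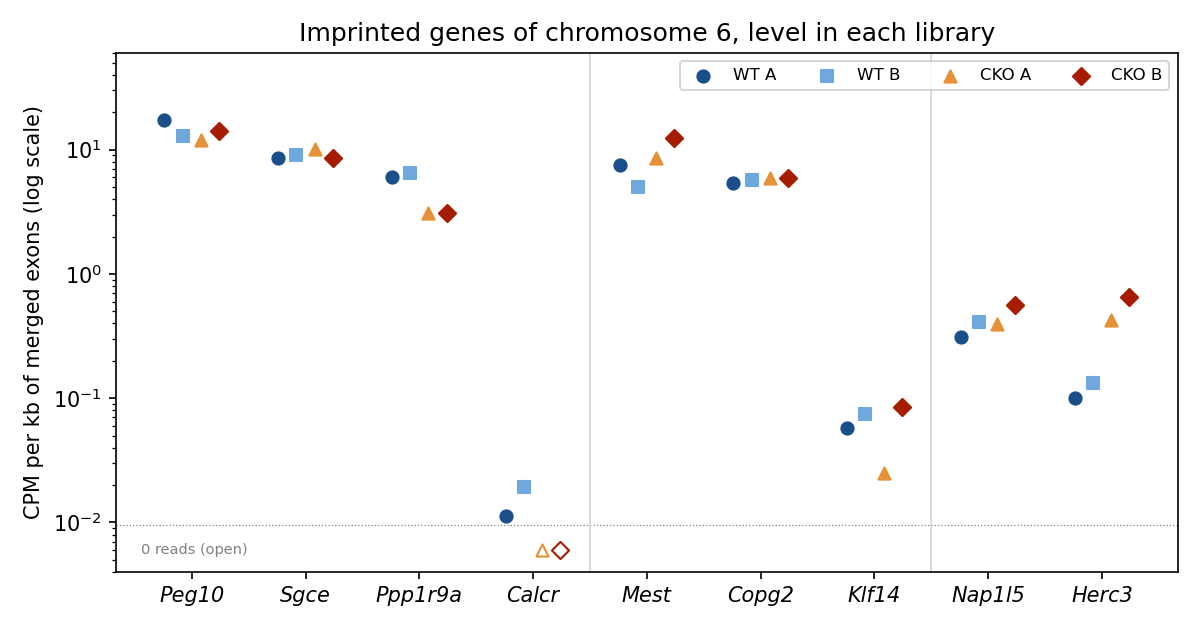
CPM per kb of merged exons (y axis, log scale) for each of the 9 genes, with 1 point per library and vertical lines between the 3 domains; open symbols below the dotted line stand for 0 reads. Herc3 is higher and Ppp1r9a lower in both CKO libraries, and Calcr is at 0 in CKO from 3 WT reads.

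Ratios within a library do not depend on scaling between libraries. From 13 to 24 Nap1l5 reads per library, the ratio of Nap1l5 to Herc3 reads per kb was 3.06 and 3.09 in WT but 0.922 and 0.861 in CKO. With the gene length of the deposited table, an alternative added after seeing the data, it was 3.88 and 3.92 in WT and 1.17 and 1.09 in CKO, and as a ratio of counts 0.619 and 0.625 in WT and 0.186 and 0.174 in CKO. The ratio was lower in both CKO libraries. The scales differ only by a fixed factor for the pair, so they had to share this direction and add no support to it. The position of the ratio relative to 1 depended on the length used. For Mest over Copg2 it was 1.40 and 0.873 in WT and 1.44 and 2.13 in CKO. Peg10 over Sgce gave 2.02 and 1.40 in WT and 1.18 and 1.65 in CKO, with the genotypes overlapping. With 2 libraries against 2, an exact two-sided permutation test cannot go below p = 0.33, and no test was made. The WT ratios of Nap1l5 to Herc3 rest on 13 and 20 over 21 and 32 reads, so their closeness does not measure precision.

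**Figure D3:**
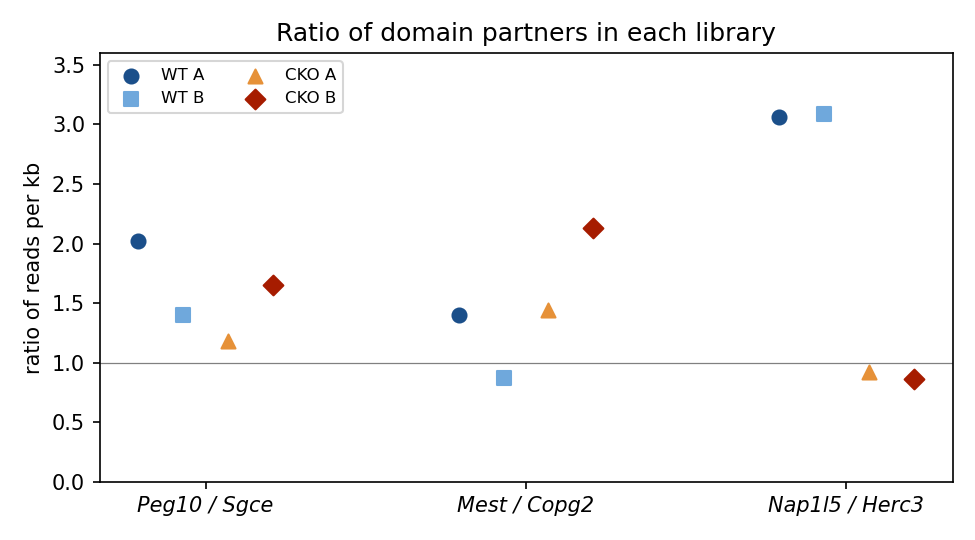
Ratio of reads per kb of merged exons (y axis) for the 3 pairs of domain partners, with 1 point per library and a line at 1. The Nap1l5 to Herc3 ratio, from 13 to 24 Nap1l5 reads per library, lies near 3.08 in WT and below 1 in CKO, on this length. The Peg10 to Sgce ratios of the genotypes overlap.

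Of the listed genes in or near the 3 domains, edgeR called 0 in the fit of all 4 libraries. Some of them, such as Col1a2 and Casd1, lie between Calcr and Peg10, and imprinting of the listed genes was not examined. Of 36 listed neighbours 25 were tested, 2 were higher and 3 lower at an unadjusted p under 0.05, limma-voom called 0 and DESeq2 called 1, the collagen gene Col1a2. The median log2 change of the neighbours was 0.07. Around Peg10, Col1a2 had the highest level, at 8310 CPM in WT and 11300 in CKO (log2 change 0.45 ± 0.21, edgeR adjusted p = 0.228). In the Mest domain Ube2h, which encodes a ubiquitin-conjugating enzyme, was at 174 and 152 CPM (adjusted p = 0.292 in edgeR). Next to Nap1l5 the transporter gene Abcg2 was at 30.7 and 28.3 CPM (edgeR adjusted p = 0.585). With scaling by library size alone edgeR called Mkln1 lower, and with no filter Col1a2 higher. Without CKO A 4 neighbours were called, Col1a2 and Tmem209 higher and Casd1 and Pon3 lower.

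**Figure D4:**
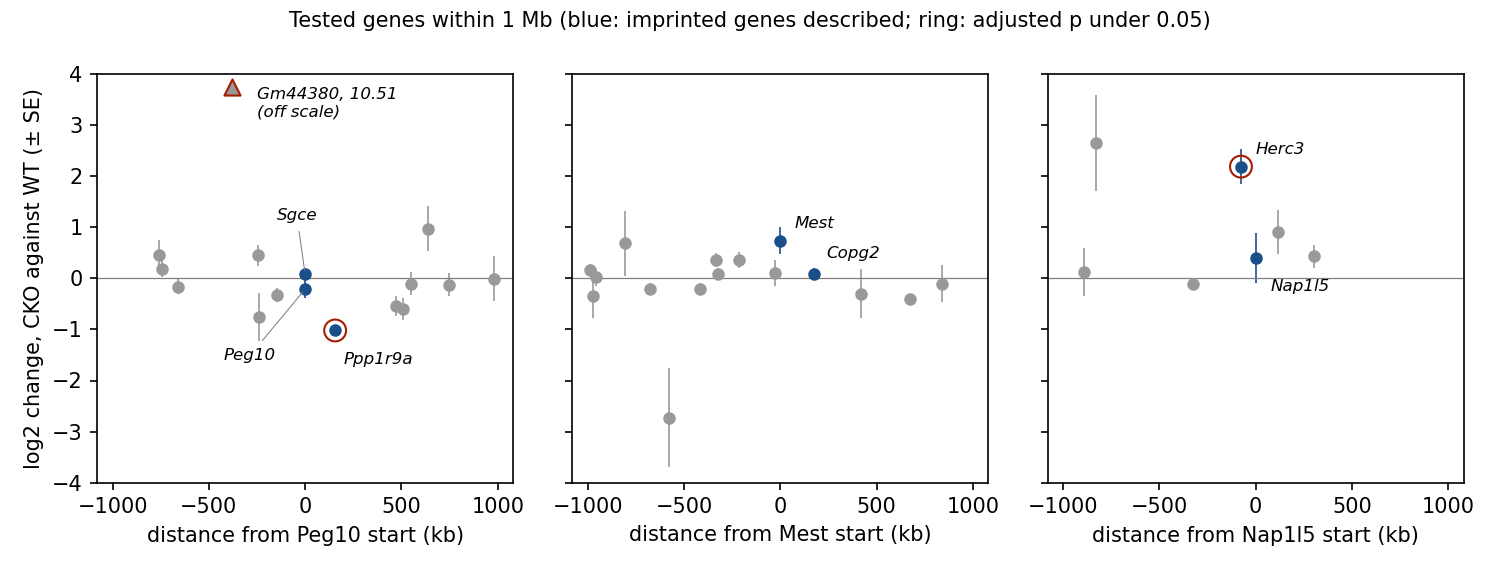
Log2 change of CKO against WT with its standard error (y axis) against distance from the start of Peg10, Mest or Nap1l5 in kb (x axis) for every tested gene within 1 Mb. Blue points are the imprinted genes described, rings and the red-edged triangle mark called genes, and the triangle stands for Gm44380, which lies off the scale at 10.51.

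Imprinted genes outside chromosome 6 were called in both directions. Of 54 listed, 45 were tested, and edgeR called 2 higher and 3 lower. This share of 11.1% stands beside the background of 7.61%, and the median log2 change was 0.02. All 5 belong to the 23 tested genes known for paternal expression. Zfp264 is annotated as a transcribed unprocessed pseudogene. Its reads numbered 1 over the WT pair against 101 over the CKO pair. This is a ratio of 101 with a 95% counting interval from 17.7 to 4010 (edgeR adjusted p = 0.0115). Impact, a regulator of translation, was higher (log2 change 0.59, edgeR adjusted p = 0.0449). The RNA Kcnq1ot1 (-1.55), the Ras exchange factor gene Rasgrf1 (-3.13) and the phosphatase gene Inpp5f (-0.68) were lower, with edgeR adjusted p of 0.0135, 0.0149 and 0.0206. The call of Impact was also lost with RLE scaling (adjusted p = 0.0518), with a mean CPM of at least 1 (adjusted p = 0.0532) and in limma-voom (adjusted p = 0.0682). Without WT B the calls of Zfp264, Rasgrf1, Inpp5f and Impact were lost, without WT A those of Inpp5f and Impact, without CKO A that of Kcnq1ot1, and without CKO B those of Kcnq1ot1 and Impact. Of 22 tested genes known for maternal expression, edgeR called 0, with 4 higher and 2 lower at an unadjusted p under 0.05, while DESeq2 and limma-voom each called H19 higher. In edgeR the H19 change was 2.93 (adjusted p = 0.0803), and the most abundant gene of that list was Grb10 (1280 CPM in WT, 678 in CKO, adjusted p = 0.132).

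Among the proteins that keep imprints methylated, Zfp57 fell. Its level was 46.5 CPM in WT and 25.3 in CKO (log2 change -0.88 ± 0.12 SE, n = 2 per genotype, edgeR adjusted p = 0.00778). The call was lost without WT B (adjusted p = 0.0574). Of 12 genes of this list 10 were tested and Zfp57 alone was called in edgeR. At an unadjusted p under 0.05 in edgeR, 0 were higher and 3 lower (Atrx, Setdb1 and Zfp57). The list's median log2 change was -0.17, with 8 genes below 0 and 2 above. Trim28, the corepressor that Zfp57 recruits, was at 267 and 269 CPM, and Uhrf1, which brings Dnmt1 to newly copied DNA, at 59.7 and 51.7 CPM, and neither passed (edgeR adjusted p = 0.952 and 0.414).

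The count columns of the CKO libraries and WT B have names that open with the same number, whose meaning is not stated. Within those 3 libraries, with 1 WT library, Herc3 changed by 2.03 and Ppp1r9a by -1.06 on the log2 scale and both were called (edgeR adjusted p = 0.033 and 0.00424). Mest was at 1.07 (adjusted p = 0.057) and Peg10 at 0.05 (adjusted p = 0.937). With autosomal genes alone, Herc3 and Ppp1r9a again were the only called genes of the 7.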

How the data were processed

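RNA from sorted Pdgfrb-GFP positive cells of 4 samples was analysed from a table of the whole series. It holds the authors' deposited counts of reads for each gene, a gene length, and a log2 fold change, p-value and adjusted p-value of mutant against control, per the file headers. Another 4 columns, of RPKM, were not used. Per the submitters' processing notes, the build was GRCm38.p6 and the tools were STAR, Trimmomatic 0.36, cutadapt 2.5, FastQC 0.11.8 and edgeR 3.28.1, with no order given. No source used here gives the counting tool or its strand setting. Columns named Control or Mutant were read as WT or CKO and give no replicate number. The labels count 2 lungs per genotype without saying whether animals were littermates, and the p-values cover only the spread among the 4 libraries. The CKO libraries were not repeats of the same sample, since Y-linked reads were found in CKO A and not in CKO B. Both WT libraries lacked Y-linked reads, so those reads do not tell whether the WT spread is partly technical.

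All genes were fitted in R 4.3.3 with edgeR 4.0.16 (filterByExpr with a minimum count of 10, TMM, robust quasi-likelihood test, threshold 0.05). Intervals are 95% and use the test's standard error, or exact binomial counting error for low counts. PCR copies are not independent molecules. Levels per kb use merged exons of GENCODE M21 on GRCm38, which matched 99.8% of genes. RefSeq promoters (GRCm38.p6) matched 6 of the 9 genes. Alternatives were DESeq2 1.42.0, limma-voom 3.58.1, RLE, library size alone, no filter, a mean CPM of at least 1, autosomal genes and each library left out. Dividing by the deposited gene length was added after seeing the data.

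The members and lists were chosen with earlier results of these data known. Besides the 9 genes and Dnmt1, the rule named up to 4 called genes per list, or the most abundant where none was called, and the 3 genes nearest in pattern to Peg10, Mest and Nap1l5. Col1a2, Tmem209, Mkln1, Casd1, Pon3, Impact, H19, Trim28, Uhrf1, Atrx, Setdb1, Xist, Gm44380 and the cell type markers named were chosen after their values were seen.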

Additional observations from a re-analysis of the deposited data

How the results depend on the processing

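Herc3 and Ppp1r9a kept direction and call under all 11 alternatives, with log2 changes from 1.87 to 2.5 and from -1.06 to -0.96. Copg2 and Nap1l5 kept direction and stayed uncalled in each alternative that tested them, while Mest, always above 0, was called in 2 of 11. Peg10 ranged from -0.41 to 0.05 and Sgce from -0.02 to 0.20 as single libraries were left out. The count of all called genes was 2459 with no filter and 339 to 1842 without single libraries. That of neighbours was 1 with library size alone, 1 with no filter, 1 in DESeq2 and 0 to 4 without single libraries. Other imprinted genes numbered 13 with no filter and 2 to 11 without single libraries, and imprint maintenance genes 2 with library size alone and 0 to 2 without single libraries. The cause of these shifts was not tested. A leave-one-out fit assumes that the lone library varies like the other genotype. No paired analysis was possible because the count columns carry no replicate numbers. Depth limits Nap1l5, Klf14 and Calcr, with at most 24 reads in a library.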

Other observations

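A predicted gene of unknown class, Gm44380, had reads in CKO alone and lies in the stretch between Calcr and Sgce. There were 0 reads in both WT libraries and 123 and 234 in CKO. Set against 3 reads as the floor for the WT pair together, this was 119-fold higher (edgeR adjusted p = 0.00714). The lower limit of the 95% counting interval of the ratio was 96.0. It spans 293 bases (chromosome 6, 4367774 to 4368066, GRCm38) and lies beyond Sgce as seen from Peg10. Among the 13 tested genes within 1 Mb of Peg10 that are outside the group described above, it was the 1 called. Around Mest (14 such genes) and Nap1l5 (5 such genes) edgeR called 0.

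Partners that share a domain were not close in pattern. Likeness was measured as the Euclidean distance between centred log2 CPM over the 4 libraries, among genes with a mean of at least 1. The genes nearest to Peg10 were Tnrc18, Palld and Heg1 (distances 0.0142, 0.0261 and 0.042), whereas Sgce stood at place 6911 of 11880 with a distance of 0.576. Nearest to Mest were Egr2, Adamtsl1 and C230034O21Rik (0.122, 0.145 and 0.147), and Copg2 stood at place 4266 (0.908). Nearest to Nap1l5 were Dcun1d3, Unc13b and Il4ra (0.0585, 0.0623 and 0.0683), with Herc3 at place 11719 of 11881 (1.75). With 4 libraries many genes lie close by, and these distances are a description.

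The gene length in the deposited table is not the length of a transcript. For 98.5% of the genes matched to GENCODE M21 it equalled the summed exon lengths of all annotated transcripts plus 1 base per exon. Ppp1r9a is given 47865 bases, against 14531 bases of merged exons, and Nap1l5 2477 against 1844. With the deposited length the mean WT ratio of Nap1l5 to Herc3 is 3.90 in place of 3.08, and the mean CKO ratio 1.13 in place of 0.891.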
